A study of Mus musculus with 4 samples.

Results

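Metalloproteases of the MMP, ADAM and ADAMTS families and their TIMP inhibitors were followed across 4 cultures of mouse neural stem cells. The members were all genes whose probe name began with Mmp, Timp, Adam or Adamts and a number. They came to 78 of the 22339 genes with a named probe, and comprised 23 Mmp, 4 Timp, 32 Adam and 19 Adamts genes. The rule reads probe names only, but the group was chosen with earlier results of these data known. Where a gene had several probes, as 33 members did, the probe with the highest mean signal over the 4 arrays stood for it.

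MMPs are zinc-dependent proteases that are made as inactive precursors and cut collagens, laminins, proteoglycans and other matrix proteins once activated. ADAMs are membrane-anchored relatives, of which some shed the outer parts of growth factor precursors, cytokines and adhesion proteins from the cell surface, while others lack protease activity and act in cell adhesion. ADAMTS proteases are secreted and cut proteoglycans and procollagens, among them the brain proteoglycan brevican. TIMPs bind the active site of MMPs, and Timp3 also inhibits several ADAM and ADAMTS proteases.

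The study measured total RNA on single-colour Agilent arrays, 1 array for each of 4 groups, and asked which genes lie downstream of Ceacam1, an adhesion molecule of the immunoglobulin family. All cells were p53-/- and were labelled as brain of the E14.5 mouse embryo, grown in serum-free medium, with transformants selected in hygromycin for 1 week after vector transfection. NSCL61-Ceacam1sh were cells of the NSCL61 line with a short hairpin RNA against Ceacam1, and NSCL61 was that line itself, known for initiating gliomas and made from p53-null neural stem cells with an activated Ras. NSC-Ceacam1L were neural stem cells expressing the long form of Ceacam1, and NSC were neural stem cells. The labels do not state whether the NSCL61 and NSC cells carried an empty vector.

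Since a group had 1 array, differences lack a replicate check and come without p-values, and the few arrays limit how precise they are. The 4 arrays occupied 1 position each of a single slide, and a position's effect cannot be told apart from a group's. No probe analysed here was named for Ceacam1, so the groups are called as the arrays were labelled. Between 62.7% and 67.2% of all genes were well above background on an array. The neural stem markers on the 10-gene list summed to 37.7 times the array's 75th percentile on NSCL61-Ceacam1sh, against 471 on NSCL61, and to 461 on NSC-Ceacam1L, against 629 on NSC. Olig2 and Nr2e1 were not well above background on NSCL61-Ceacam1sh, where Nes and Sox2 were, and all but Prom1 were well above background on NSCL61.

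Levels are given as log2 of the processed signal relative to the 75th percentile of the array, so that 0 is a gene at that percentile. Levels of one gene can be compared between arrays, but levels of different genes cannot, because each probe has its own response. An error after ± is the error that the scanner software gives for the spots and covers no biological variation. Genes counted as higher or lower from 2-fold, a log2 difference of 1.0, if the probe was well above background on the brighter array. A member seen on 1 array only is given as "at least" a fold, measured against the dim array's own signal or the lowest signal well above background there, whichever was higher. In RNA from whole cultures, fewer cells of a type and less RNA per cell cannot be told apart.

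Promoter sequences are shown for 6 genes of the Mmp cluster and for Timp1, because the results below turn on these genes. They are RefSeq sequences on GRCm38.p6, running 5′ to 3′ over the 150 bases before the annotated start. Capitals mark matches to TGANTCA, the motif that AP-1 factors (Fos and Jun proteins) bind in many genes. They also mark the TATA box, by its letters TATAAA.
Mmp13, chr9:7272364-7272513, plus strand: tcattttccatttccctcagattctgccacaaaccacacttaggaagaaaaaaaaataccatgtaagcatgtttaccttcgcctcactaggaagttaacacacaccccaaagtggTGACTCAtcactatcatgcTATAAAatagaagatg
Mmp1b, chr9:7388027-7388176, minus strand: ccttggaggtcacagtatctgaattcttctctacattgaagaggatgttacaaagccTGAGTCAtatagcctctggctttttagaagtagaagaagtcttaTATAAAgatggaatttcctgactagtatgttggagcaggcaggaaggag
Mmp3, chr9:7445672-7445821, plus strand: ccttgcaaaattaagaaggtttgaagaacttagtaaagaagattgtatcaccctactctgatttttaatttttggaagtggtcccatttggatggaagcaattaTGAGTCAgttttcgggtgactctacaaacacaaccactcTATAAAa
Mmp10, chr9:7502192-7502341, plus strand: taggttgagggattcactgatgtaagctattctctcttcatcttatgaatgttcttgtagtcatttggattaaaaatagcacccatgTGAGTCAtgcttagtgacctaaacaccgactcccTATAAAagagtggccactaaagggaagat
Mmp12, chr9:7347224-7347373, plus strand: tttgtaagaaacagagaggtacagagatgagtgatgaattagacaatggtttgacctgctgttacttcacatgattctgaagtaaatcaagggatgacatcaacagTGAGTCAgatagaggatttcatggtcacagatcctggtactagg
Mmp27, chr9:7571246-7571395, plus strand: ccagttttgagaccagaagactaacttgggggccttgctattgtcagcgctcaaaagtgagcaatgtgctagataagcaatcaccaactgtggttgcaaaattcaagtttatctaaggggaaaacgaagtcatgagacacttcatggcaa
Timp1, chrX:20870016-20870165, plus strand: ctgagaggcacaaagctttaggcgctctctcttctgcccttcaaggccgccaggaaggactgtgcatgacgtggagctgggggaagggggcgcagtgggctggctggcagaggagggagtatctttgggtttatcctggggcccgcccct

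The first 4 of these genes, Mmp13, Mmp1b, Mmp3 and Mmp10, all hold an AP-1 motif and a TATA box. The AP-1 match began 35 bases before the start in Mmp13, 93 bases before it in Mmp1b, 46 in Mmp3 and 63 in Mmp10. Windows of 250 bases before to 50 bases after the start were searched on both strands, and 48 of the 78 members had such a window in the RefSeq table. AP-1 letters occurred in 66.7% of the 12 windows of the Mmp cluster, in 22.6% of the 53 windows of all members, in 9.76% of the 41 windows of members outside the cluster, and in 7.81% of the 32851 windows of all genes. TATA box letters occurred in 75% of the cluster's windows, against 13.6% of all windows, and AGGAAG, an ETS factor motif, in 66.7% against 35.4%. These letter matches describe the windows and show no binding. Of the cluster genes that were lower on NSCL61-Ceacam1sh, Mmp12 carries an AP-1 motif in 1 window and none in another, and Mmp8 and Mmp27 carry none. Mmp1a, Mmp20 and Mmp7 carry the motif but were not well above background on any array. Whether the motif plays a part was not tested. A motif match was found in 4 of 11 members that were higher on NSCL61-Ceacam1sh, in 3 of 13 that were lower and in 5 of 24 others.

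Of the 78 members, 53 were well above background on at least 1 array, 24 on all 4 and 25 on none. The share seen was 42.3% (33 members) on NSCL61-Ceacam1sh, against 55.1% (43) on NSCL61, and 53.8% (42) on NSC-Ceacam1L, against 44.9% (35) on NSC. Over all genes these shares were 62.7% on NSCL61-Ceacam1sh, against 65.2% on NSCL61, and 67.2% on NSC-Ceacam1L, against 63.3% on NSC. The members not seen on any array included the gelatinase gene Mmp9, the membrane-type Mmp16 and Mmp25, Adamts20 and 12 of the 20 testis-type Adam genes, such as the sperm surface gene Adam2.

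The first comparison asked what changes with loss of Ceacam1 in the glioma-initiating line, with NSCL61-Ceacam1sh set against NSCL61. Mmp3, Mmp10, Mmp13 and Mmp1b of the Mmp cluster, Mmp2, Mmp11, Mmp14, Timp1 and Timp2 were higher on NSCL61-Ceacam1sh. Mmp15, Mmp12, Timp3, Timp4, Adamts4 and the neural Adam22 and Adam23 were lower. In all, 14 of 50 evaluated members (28.0%) were higher, beside 23.5% of all genes evaluated, and 20 (40.0%) were lower, beside 24.2% of all genes. The median difference of the 26 members well above background on both arrays was -0.59, beside 0.07 over all such genes. Of the calls, 7 higher and 14 lower members were seen on 1 array only. Over all genes, this held for 952 of 3665 higher and 1426 of 3787 lower ones.

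Among the 15 evaluated Mmp genes, 7 (46.7%) were higher and 6 (40.0%) lower, beside 23.5% and 24.2% of all genes. Only 3 of the 23 Mmp genes were well above background on all 4 arrays. Of 10 secreted Mmp genes in a cluster on chromosome 9, 4 were higher and 3 lower. In gene order this cluster runs Mmp13, Mmp12, Mmp1b, Mmp3, Mmp1a, Mmp10, Mmp8, Mmp27, Mmp20 and Mmp7. Mmp3, stromelysin-1, which cuts proteoglycans and other matrix proteins and activates other pro-MMPs, was at 6.08 ± 0.14 on NSCL61-Ceacam1sh, against -6.50 on NSCL61, and at -6.69 on NSC-Ceacam1L, against -6.12 on NSC (probe A_51_P255699, chromosome 9, 7455751 to 7455810, plus strand, mm9). It was thus seen on NSCL61-Ceacam1sh alone and was at least 1691-fold higher there than on NSCL61.

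Mmp10, stromelysin-2, was at 2.37 on NSCL61-Ceacam1sh, against -6.65 on NSCL61, and at -6.85 on NSC-Ceacam1L, against -6.24 on NSC (probe A_51_P120830, chromosome 9, 7510011 to 7510070, plus strand, mm9). Mmp13, collagenase-3, was at -0.39 on NSCL61-Ceacam1sh, against -6.73 on NSCL61, and at -6.94 on NSC-Ceacam1L, against -6.34 on NSC. Mmp1b, one of a pair of mouse genes related to the human interstitial collagenase, was at -0.31 on NSCL61-Ceacam1sh, against -6.63 on NSCL61, and at -6.84 on NSC-Ceacam1L, against -6.26 on NSC. Each of the 3 genes was well above background on NSCL61-Ceacam1sh only, and was at least 129.7-fold (Mmp10), 19.1-fold (Mmp13) and 20.2-fold (Mmp1b) higher there than on NSCL61.

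Mmp12 and Mmp27 had the reverse pattern within the same cluster. Mmp12, macrophage metalloelastase, was at -6.58 on NSCL61-Ceacam1sh, against -0.94 ± 0.15 on NSCL61, and at -6.78 on NSC-Ceacam1L, against -6.15 on NSC (probe A_55_P2105783, chromosome 9, 7360373 to 7360432, plus strand, mm9). Mmp27 was at -5.54 on NSCL61-Ceacam1sh, against -1.35 on NSCL61, and at -5.64 on NSC-Ceacam1L, against -6.18 on NSC. Both were seen on NSCL61 alone, and were at least 13.99-fold (Mmp12) and 10.6-fold (Mmp27) lower on NSCL61-Ceacam1sh. Each of these genes had another probe that was not well above background on any array, at -5.78 (Mmp12) and -6.04 (Mmp27) on NSCL61, so the pattern rests on 1 probe per gene. Mmp8, neutrophil collagenase, was faint and seen on NSCL61 only, at -4.14, and was at least 1.52-fold lower on NSCL61-Ceacam1sh, a call lost with normexp background correction. Mmp1a, Mmp20 and Mmp7 were not well above background on any array.

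**Figure D1:**
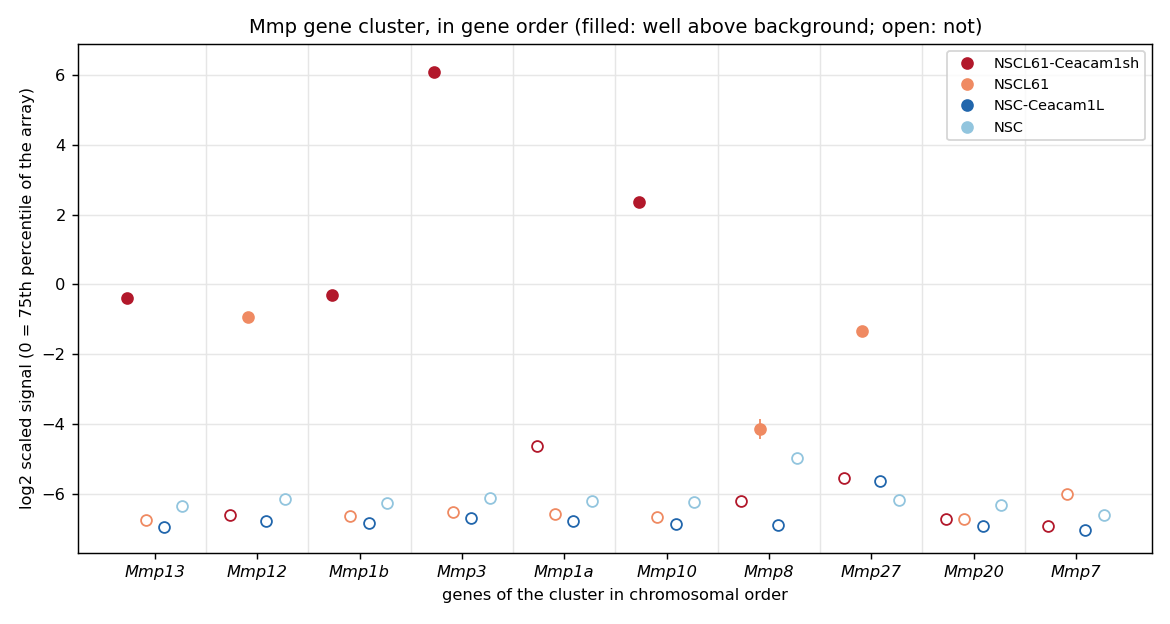
Log2 scaled signal (vertical axis, 0 is the 75th percentile of the array) of the 10 genes of the Mmp cluster in chromosomal order, with 1 point per array and bars for the scanner software's error, which are mostly smaller than the points; filled points are well above background and open ones are not, and no error is drawn for those. Mmp13, Mmp1b, Mmp3 and Mmp10 are filled on NSCL61-Ceacam1sh only, Mmp12, Mmp8 and Mmp27 on NSCL61 only, and none of the 10 on NSC-Ceacam1L or NSC.

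Of the 4 genes next to the cluster, Dync2h1 alone passed 2-fold. On the Mmp13 side, Dync2h1 differed by -1.63 and Dcun1d5 by 0.85 between NSCL61-Ceacam1sh and NSCL61, and on the Mmp7 side Tmem123 differed by 0.30 and Birc2 by -0.61. All 4 were well above background on every array. Within the cluster, Mmp12, which was lower, lies between Mmp13 and Mmp1b, which were higher.

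The other Mmp genes that were higher on NSCL61-Ceacam1sh were Mmp2, Mmp11 and Mmp14. Mmp2, the gelatinase that cuts type IV collagen, was at 0.21 on NSCL61-Ceacam1sh, against -3.79 on NSCL61, and at -4.21 on NSC-Ceacam1L, against -5.88 on NSC, where it was not well above background (probe A_51_P341736, chromosome 8, 95376840 to 95376899, plus strand, mm9). Mmp14, the membrane-type protease that activates pro-Mmp2 with Timp2 as its partner, was at 1.23 on NSCL61-Ceacam1sh, against -0.52 on NSCL61, and at 0.09 on NSC-Ceacam1L, against -0.94 on NSC. Mmp11, stromelysin-3, which is activated inside the cell by furin, was at 0.44 on NSCL61-Ceacam1sh, against -3.08 on NSCL61, and at -0.29 on NSC-Ceacam1L, against -2.78 on NSC. All 3 were highest on NSCL61-Ceacam1sh, with log2 differences from NSCL61 of 3.997 ± 0.29 (Mmp2), 3.52 ± 0.23 (Mmp11) and 1.74 ± 0.20 (Mmp14).

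Of the membrane-type Mmp genes, Mmp14 was higher and Mmp15, Mmp17 and Mmp24 were lower on NSCL61-Ceacam1sh. Mmp15, which like Mmp14 spans the membrane, was at -6.77 on NSCL61-Ceacam1sh, against 1.54 on NSCL61, and at 1.86 on NSC-Ceacam1L, against 3.13 on NSC (probe A_51_P220062, chromosome 8, 97897703 to 97897762, plus strand, mm9). It was well above background on every array but NSCL61-Ceacam1sh, where it was at least 78.1-fold lower than on NSCL61. The GPI-anchored Mmp17 was at -2.31 on NSCL61-Ceacam1sh, against -0.09 on NSCL61, and at 0.90 on NSC-Ceacam1L, against 1.26 on NSC, with a difference of -2.22 between the NSCL61 arrays. Mmp24, a membrane-type protease known from the nervous system, was at least 6.67-fold lower on NSCL61-Ceacam1sh. Mmp19 was seen on both NSCL61 arrays, at -2.20 on NSCL61-Ceacam1sh and -1.41 on NSCL61, but on neither NSC array.

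The Timp genes split into 2 higher and 2 lower. Timp1, a secreted inhibitor of most MMPs, was at 6.55 ± 0.14 on NSCL61-Ceacam1sh, against -0.46 ± 0.15 on NSCL61, and at -0.02 on NSC-Ceacam1L, against 0.68 on NSC (probe A_55_P1985850, chromosome X, 20451802 to 20451861, plus strand, mm9). The other 3 arrays lay far below NSCL61-Ceacam1sh, and the difference between the NSCL61 arrays was 7.01 ± 0.20, or 129-fold. Its searched promoter window, of which a stretch is shown above, held no match to TGANTCA or to the TATA box letters. It carried the ETS motif at 3 places. Other forms of the AP-1 motif were not searched, so their absence is not shown. Timp2, which inhibits MMPs and also takes part in the activation of pro-Mmp2, was at 7.95 on NSCL61-Ceacam1sh, against 6.60 on NSCL61, and at 5.79 on NSC-Ceacam1L, against 4.22 on NSC (probe A_52_P540219, chromosome 11, 118163146 to 118163205, minus strand, mm9). It was well above background on every array and differed by 1.35 ± 0.20 between the NSCL61 arrays, a call that was lost under quantile normalization.

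Timp3, the matrix-bound member that also inhibits Adam17 and Adamts4, was at 3.97 on NSCL61-Ceacam1sh, against 7.52 on NSCL61, and at 4.53 on NSC-Ceacam1L, against 3.60 on NSC (probe A_51_P463765, chromosome 10, 85811696 to 85811755, plus strand, mm9). NSCL61 stood above the other 3 arrays, and the difference of NSCL61-Ceacam1sh from it was -3.55 ± 0.20. Timp4, which is expressed in brain and heart, was at -5.33 on NSCL61-Ceacam1sh, against 0.06 on NSCL61, and at 3.49 on NSC-Ceacam1L, against 4.26 on NSC (probe A_51_P355427, chromosome 6, 115196120 to 115196179, minus strand, mm9). It was not well above background on NSCL61-Ceacam1sh and was at least 28.0-fold lower there than on NSCL61.

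**Figure D2:**
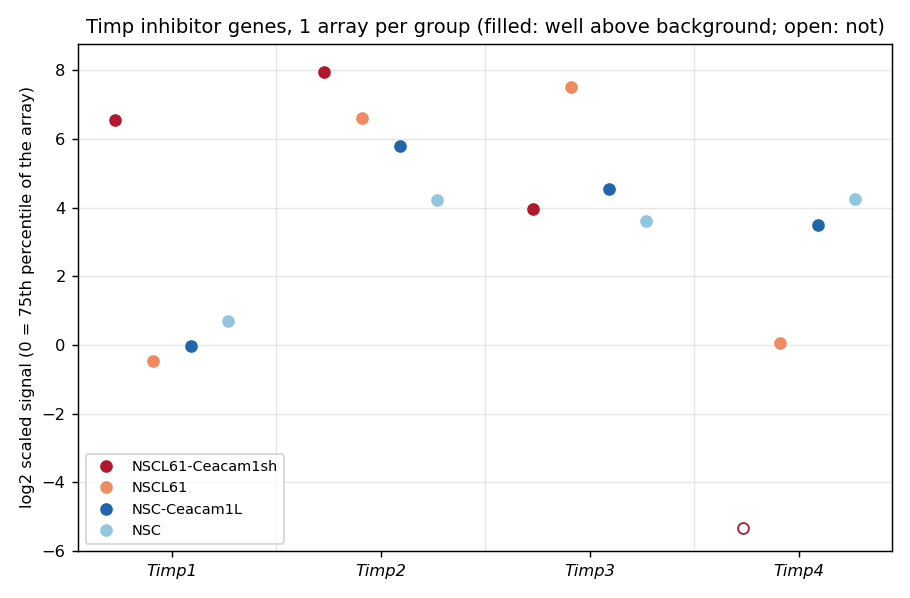
Log2 scaled signal (vertical axis, 0 is the 75th percentile of the array) of Timp1, Timp2, Timp3 and Timp4, with 1 point per array and bars for the scanner software's error, which are smaller than the points; the open point is not well above background. Timp1 stands at 6.55 on NSCL61-Ceacam1sh with the other 3 arrays between -0.46 and 0.68, Timp3 is highest on NSCL61 at 7.52, and Timp4 is highest on NSC at 4.26.

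In the RefSeq table, each Timp gene overlaps another gene, which for Timp1, Timp3 and Timp4 is a synapsin gene coding for a synaptic vesicle protein. Syn2, which overlaps Timp4, was at -6.59 on NSCL61-Ceacam1sh, against 1.73 on NSCL61, and at 2.85 on NSC-Ceacam1L, against 2.64 on NSC, and was at least 89.0-fold lower on NSCL61-Ceacam1sh. Cep295nl, which overlaps Timp2, was at least 9.97-fold higher on NSCL61-Ceacam1sh, at -1.33, against -5.12 on NSCL61, and was at -2.89 on NSC-Ceacam1L, against -6.53 on NSC. Between NSCL61 and NSC, Timp4 differed by -4.20 and Syn2 by -0.92. Timp2 differed by 2.38 between these arrays, while Cep295nl was not well above background on either of them. Syn1, which overlaps Timp1, differed by -0.94 between NSCL61-Ceacam1sh and NSCL61, and Syn3, which overlaps Timp3, by -1.18. The probes of each pair have their own sequences, and whether the overlap plays a part was not tested.

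Among the Adam genes, 1 of 19 evaluated (5.26%) was higher on NSCL61-Ceacam1sh and 7 (36.8%) were lower, beside 23.5% and 24.2% of all genes. Adam10 and Adam17, the main sheddases, stayed under 2-fold. Adam10, which cuts Notch and the amyloid precursor protein, was at 3.27 on NSCL61-Ceacam1sh, against 4.04 on NSCL61, and at 3.38 on NSC-Ceacam1L, against 3.55 on NSC. Adam17, which releases TNF and EGF-family ligands, was at -2.18 on NSCL61-Ceacam1sh, against -2.11 on NSCL61, and at -1.98 on NSC-Ceacam1L, against -1.67 on NSC. Neither passed 2-fold in any of the 3 comparisons.

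Adam9, Adam15, Adam8 and Adam12 were likewise seen on all 4 arrays and under 2-fold in each comparison at the probe used. Adam15, which has an integrin-binding motif in its disintegrin domain, came closest to the threshold, at 6.07 on NSCL61-Ceacam1sh, against 5.08 on NSCL61, a difference of 0.99. At the probe used, 11 members were seen on every array and stayed under 2-fold in all 3 comparisons, and 10 of them were Adam genes. The remaining one was Adamts14, a procollagen protease, at 3.29 on NSCL61-Ceacam1sh, against 3.13 on NSCL61. The share of all genes with this pattern was not counted. Other probes of Adam5, Adam11, Adam33 and Adam12 passed 2-fold. That of Adam5, seen on every array, gave -1.33 between NSCL61-Ceacam1sh and NSCL61. That of Adam11 gave 1.26 between NSC-Ceacam1L and NSC and 1.255 between NSCL61 and NSC. That of Adam33, seen on NSCL61 only, gave -1.10 between NSCL61-Ceacam1sh and NSCL61 and 1.30 between NSCL61 and NSC. Those of Adam12 stand in the closing observations.

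Adam19, known from heart development and as a protease of neuregulin, was the one member of the 8 evaluated Adam proteases made outside the testis that passed 2-fold on NSCL61-Ceacam1sh. It was at -1.82 on NSCL61-Ceacam1sh, against 0.54 on NSCL61, and at 0.15 on NSC-Ceacam1L, against 1.14 on NSC. The difference between the NSCL61 arrays was -2.36, and that between the NSC arrays fell just short of the threshold, at -0.998.

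The neural Adam genes without protease activity differed among themselves. Adam22, a synaptic receptor for the secreted protein Lgi1, was at -2.93 on NSCL61-Ceacam1sh, against 0.72 on NSCL61, and at 0.72 on NSC-Ceacam1L, against 0.03 on NSC (probe A_55_P2028474, chromosome 5, 8072390 to 8072449, minus strand, mm9). Its difference between the NSCL61 arrays, -3.65 ± 0.22, was the largest negative one of the 26 members seen on both arrays. Adam23, also a partner of Lgi1, was at -5.59 on NSCL61-Ceacam1sh, against -2.29 on NSCL61, and at -1.76 on NSC-Ceacam1L, against -2.75 on NSC, and was at least 5.50-fold lower on NSCL61-Ceacam1sh. Adam11 differed by 0.03, at 0.47 on NSCL61-Ceacam1sh and 0.43 on NSCL61, whereas another, dimmer probe of Adam11 differed by -2.60.

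Of 20 testis-type Adam genes, 8 were seen on any array, all at low signal. Adam32 was at -3.37 on NSCL61-Ceacam1sh, against -1.31 on NSCL61, a difference of -2.06. Adam25 and Adam3, of which Adam3 is needed for sperm migration, were seen on NSCL61 only and were at least 2.78-fold and 2.42-fold lower on NSCL61-Ceacam1sh. Another Adam3 probe was not well above background on any array, at -6.57 on NSCL61, so the pattern of Adam3 rests on 1 probe. Adam26b was at least 2.72-fold higher there, at -2.86, against -4.30 on NSCL61. Adam1a was also counted as lower, at -5.85 on NSCL61-Ceacam1sh, against -4.28 on NSCL61, but only by at least 1.39-fold. The calls of Adam25, Adam3, Adam26b and Adam1a were all lost with normexp background correction.

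**Figure D3:**
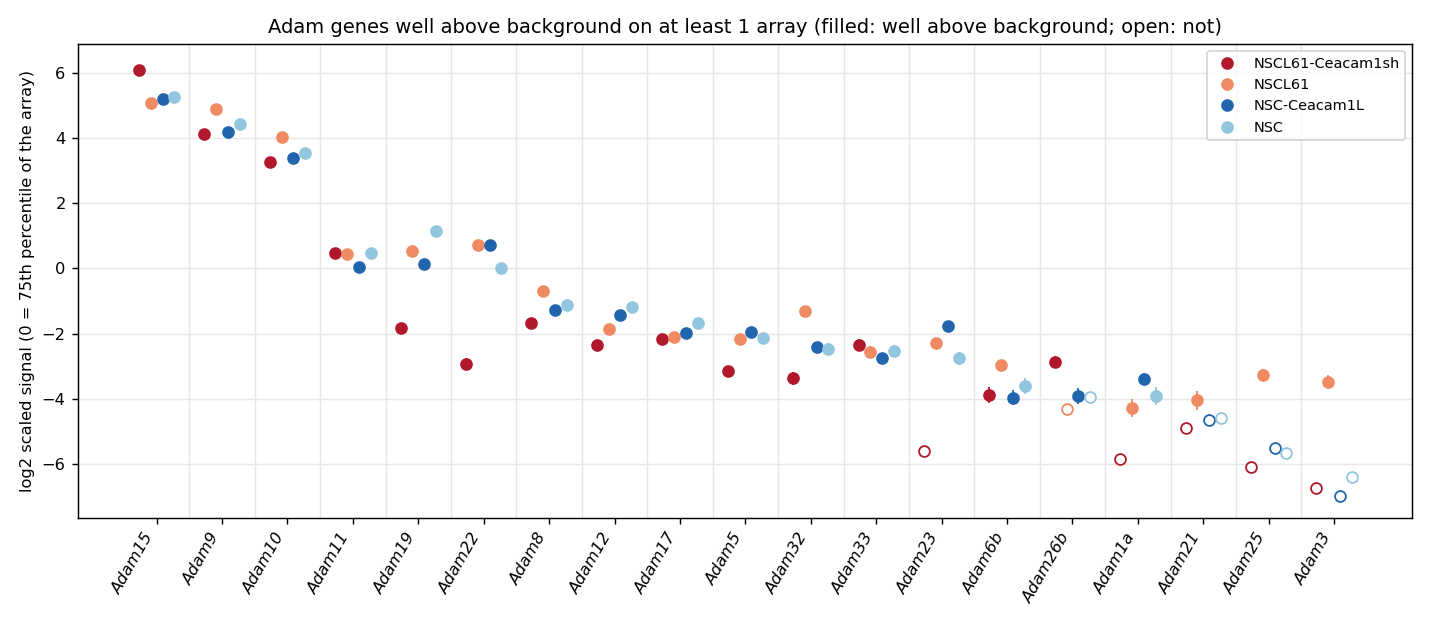
Log2 scaled signal (vertical axis, 0 is the 75th percentile of the array) of the 19 Adam genes seen on at least 1 array, ordered by mean level, with 1 point per array and bars for the scanner software's error; filled points are well above background and open ones are not. Adam15, Adam9 and Adam10 are at similar heights on all 4 arrays, while Adam19, Adam22 and Adam23 have their lowest point on NSCL61-Ceacam1sh.

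Adamts genes moved in both directions, with 4 (33.3%) higher and 5 (41.7%) lower of 12 evaluated on NSCL61-Ceacam1sh, beside 23.5% and 24.2% of all genes. Adamts4, an aggrecanase that also cuts brevican, was at 2.07 on NSCL61-Ceacam1sh, against 5.49 on NSCL61, and at 3.11 on NSC-Ceacam1L, against 3.60 on NSC (probe A_55_P2159555, chromosome 1, 173190709 to 173190768, plus strand, mm9). NSCL61 was the highest of the 4 arrays, and the difference of NSCL61-Ceacam1sh from it was -3.42 ± 0.20, or -1.99 at another probe of the gene. Adamts17 was at -6.66 on NSCL61-Ceacam1sh, against -1.41 on NSCL61, and at -2.72 on NSC-Ceacam1L, against -2.27 on NSC, which made it at least 10.1-fold lower on NSCL61-Ceacam1sh. Adamts15, a proteoglycan-cleaving enzyme, was at least 4.18-fold lower.

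On the other side, Adamts7, which cuts cartilage oligomeric matrix protein, was at 1.14 on NSCL61-Ceacam1sh, against -1.06 on NSCL61, and at -0.13 on NSC-Ceacam1L, against 0.26 on NSC, with a difference of 2.20 between the NSCL61 arrays. Adamts9, which cuts versican, differed by 1.17, at 0.60 on NSCL61-Ceacam1sh and -0.56 on NSCL61. Adamts2, which removes the N-propeptide of procollagen, was at -2.91 on NSCL61-Ceacam1sh, against -5.38 on NSCL61, and was at least 3.34-fold higher. The calls of Adamts9 and Adamts2 were lost with normexp background correction. Adamts8, Adamts10 and Adamts19 were also past the threshold, but their probes or sources gave conflicting values, which stand in the closing observations.

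**Figure D4:**
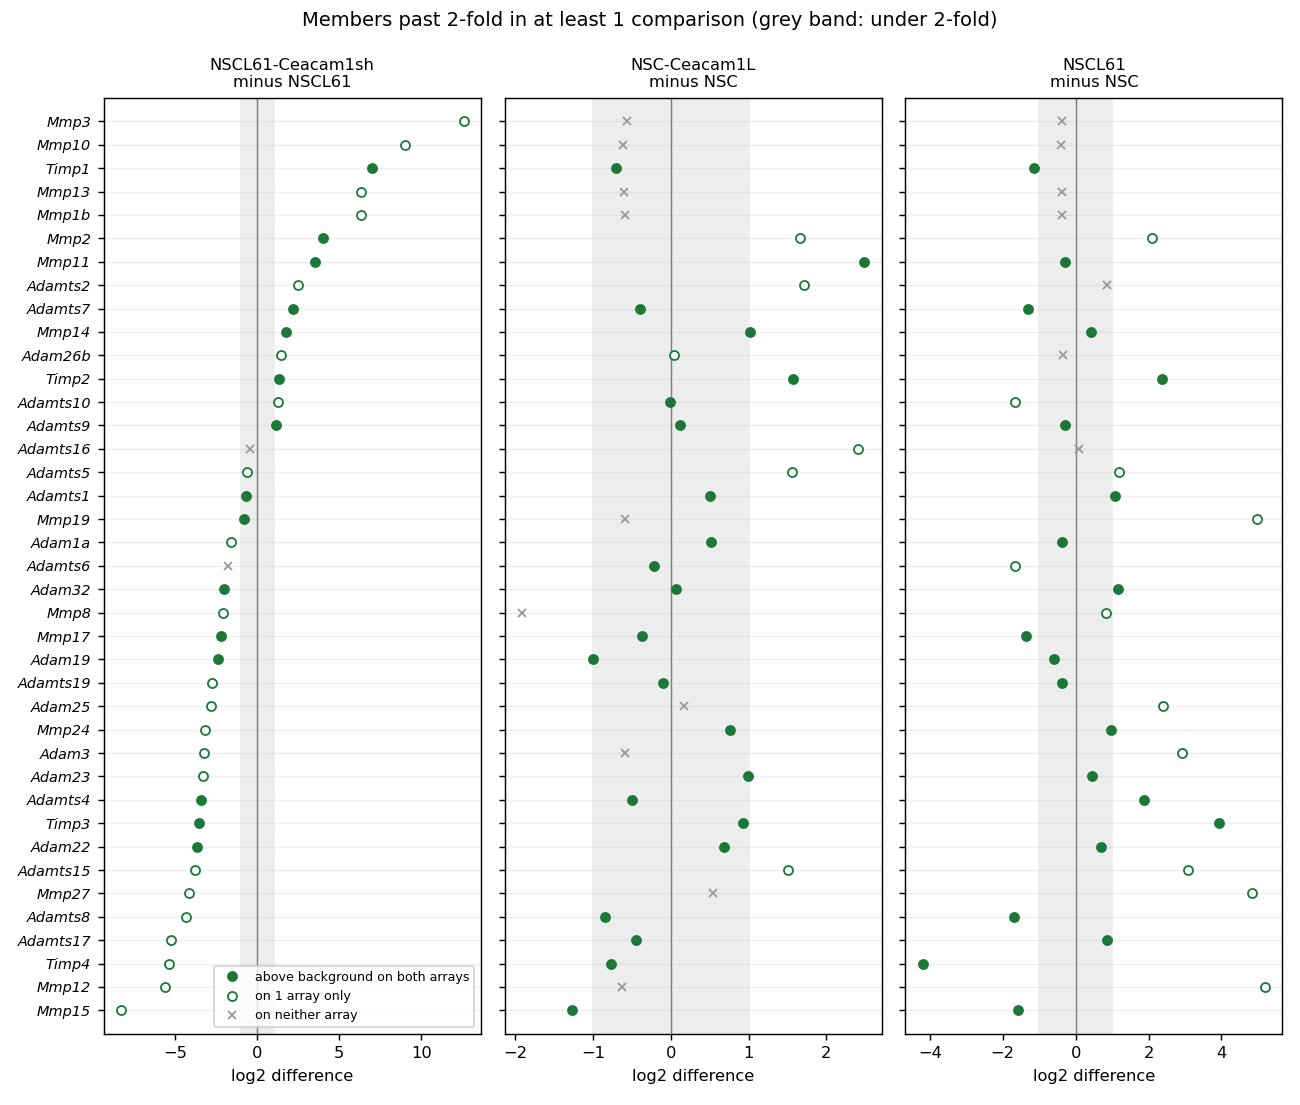
Log2 differences (horizontal axes, each panel with its own range) of the 39 members past 2-fold in at least 1 of the comparisons NSCL61-Ceacam1sh minus NSCL61, NSC-Ceacam1L minus NSC and NSCL61 minus NSC, ordered by the first; filled points are well above background on both arrays, open ones on 1 array, where the measured difference is no bound, and crosses on neither. The first panel runs from -8.31 (Mmp15) to 12.58 (Mmp3), while the second stays between -1.91 and 2.49.

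Markers of other cell types also differed between the arrays, in directions that varied by list. The 9 fibroblast markers summed to 26.2 times the 75th percentile on NSCL61-Ceacam1sh, against 4.10 on NSCL61, and to 19.2 on NSC-Ceacam1L, against 5.23 on NSC, with 7, 6, 5 and 4 of them well above background on NSCL61-Ceacam1sh, NSCL61, NSC-Ceacam1L and NSC. Lum was not well above background on any array and Thy1 not on NSCL61-Ceacam1sh, while Dcn was seen on NSCL61-Ceacam1sh only. The 2 brightest fibroblast markers on NSC-Ceacam1L were Thy1, at 3.71, against 1.00 on NSC, and Pdgfra, at 2.50, against 1.52 on NSC, whereas Col1a1 differed by -0.72 and Col1a2 by 0.75 between these arrays. The 7 mesothelial or epithelial markers summed to 84.3 on NSCL61-Ceacam1sh, against 0.550 on NSCL61, nearly all of it from Msln, with Upk3b and Epcam not seen on any array. Of 3 evaluated, 2 (66.7%) were higher and 1 (33.3%) was lower, by -1.79, beside 23.5% and 24.2% of all genes. The 6 astrocyte markers summed to 3.67 on NSCL61-Ceacam1sh, against 676 on NSCL61. The 7 microglia or macrophage markers summed to 12.8 on NSCL61-Ceacam1sh, against 28.4 on NSCL61, and to 26.8 on NSC-Ceacam1L, against 21.6 on NSC. Of 4 evaluated, 3 were lower on NSCL61-Ceacam1sh than on NSCL61, beside 24.2% of all genes. These were Itgam (-1.27), Cd68 (-1.26) and Cx3cr1 (at least 3.78-fold), while Csf1r stayed under 2-fold (-0.504). Between NSCL61 and NSC, 2 of 4 evaluated were higher on NSCL61, beside 14.4% of all genes. Cd68 (1.93) and Cx3cr1 (at least 2.71-fold) were higher there, as Mmp12 was, while Csf1r (0.09) and Itgam (0.37) stayed under 2-fold. Aif1, Ptprc and Tyrobp were not well above background on any array. The 5 endothelial markers summed to 8.62 on NSCL61-Ceacam1sh, against 13.9 on NSCL61, and to 8.65 on NSC-Ceacam1L, against 10.8 on NSC. The part of other cell types in the metalloprotease differences was not tested.

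Genes that work with the metalloproteases were read from lists of non-members. Of 27 evaluated partners and regulators, 10 (37.0%) were higher and 6 (22.2%) lower on NSCL61-Ceacam1sh, beside 23.5% and 24.2% of all genes. Rhbdf2, which escorts Adam17 to the cell surface, was at least 37.7-fold higher, and Rhbdf1, which does the same, differed by 0.92. Thbs2, a matricellular protein that clears Mmp2 from the pericellular space, differed by 4.64, at 4.33 on NSCL61-Ceacam1sh, against -0.31 on NSCL61, while caveolin Cav1 was at least 13.8-fold higher.

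Tetraspanins of the group that partners Adam10 went in different directions. Tspan10 was at least 10.2-fold higher and Tspan33 at least 56.2-fold lower on NSCL61-Ceacam1sh. The proprotein convertases, which activate many metalloprotease precursors, were also unlike each other, with Pcsk6 at least 55.5-fold and Pcsk5 at least 5.28-fold lower and Furin higher by 1.53. A2m, the plasma inhibitor that traps proteases of all classes, was at least 16.2-fold lower. Reck, a membrane-anchored MMP inhibitor, differed by -0.39, at -3.30 on NSCL61-Ceacam1sh and -2.91 on NSCL61.

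Among 23 evaluated substrates of the ADAM sheddases, 10 (43.5%) were higher and 7 (30.4%) lower on NSCL61-Ceacam1sh, beside 23.5% and 24.2% of all genes. The EGF-family ligand genes Ereg, Areg and Nrg1 were at least 518-fold, 254-fold and 106-fold higher, and the ephrin Efna5 differed by 4.03. The Notch ligand Dll1 differed by -6.41, the prion protein gene Prnp by -2.73 and Aplp2, a relative of the amyloid precursor protein, by -2.46, and the neurotrophin receptor Ngfr was at least 7.79-fold lower. Adam10 and Adam17 themselves differed by -0.77 and -0.06.

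Matrix substrates were mostly higher, 13 of 19 evaluated (68.4%), with 3 (15.8%) lower, beside 23.5% and 24.2% of all genes. Spp1, osteopontin, was at 6.06 on NSCL61-Ceacam1sh, against -0.39 on NSCL61, the collagen gene Col3a1 differed by 5.25, and the basement membrane gene Nid1 and the small proteoglycan gene Dcn were at least 259.6-fold and 248-fold higher. The 3 lower ones were brain or glial proteoglycans, with Bcan, brevican, at least 2883-fold, Ncan at least 531-fold and Cspg4 at least 8.41-fold lower. Bcan was at -6.50 on NSCL61-Ceacam1sh, against 6.74 on NSCL61, and at 7.82 on NSC-Ceacam1L, against 7.87 on NSC. Dcn, Col1a1, Col1a2 and Col3a1 of this list also stand on the fibroblast list above.

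The second comparison asked what changes with gain of Ceacam1L in neural stem cells, with NSC-Ceacam1L set against NSC. Differences were smaller, and 8 of 42 evaluated members (19.0%) were higher, beside 10.5% of all genes evaluated, while 1 (2.38%) was lower, beside 6.05%. The median of the 35 members seen on both arrays was -0.17, beside -0.13 over all such genes. Only Mmp11, Timp2 and Mmp14 were both higher and well above background on both arrays. The other 5 higher members, Mmp2, Adamts2, Adamts5, Adamts15 and Adamts16, were seen on NSC-Ceacam1L alone and reached 2-fold as a bound in no case. Counted by the bound, 3 of 42 members were higher, beside 1237 of 15314 genes.

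Mmp11 had the largest difference of these, 2.49 ± 0.24, with -0.29 on NSC-Ceacam1L and -2.78 on NSC. Timp2 differed by 1.57 ± 0.20. Mmp14 differed by 1.02 ± 0.21, a call that was lost with normexp background correction. Mmp15 was the single lower member, at 1.86 on NSC-Ceacam1L, against 3.13 on NSC, a difference of -1.27 that fell under the threshold with spike-in scaling. Timp3 differed by 0.93, Timp4 by -0.77 and Timp1 by -0.70. None of the 16 evaluated Adam genes was past 2-fold at the probe used, beside 10.5% of all genes higher and 6.05% lower. Another Adam11 probe, well above background on both arrays, gave 1.26, where the probe used gave -0.43. At the probes used, Adam23 was nearest on the positive side, at 0.99. Another Adam23 probe, seen on NSC-Ceacam1L only, gave 4.08. No gene of the Mmp cluster was well above background on either array.

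Of the partners and regulators, 7 of 23 (30.4%) were higher on NSC-Ceacam1L and 1 (4.35%) was lower, beside 10.5% and 6.05% of all genes. Thbs2 was at least 3.94-fold higher, at -2.29 on NSC-Ceacam1L, against -6.19 on NSC, and Adamtsl1, a relative of the Adamts genes without a protease domain, was at least 3.24-fold higher. Tspan17 differed by 2.46 and Adamtsl4 by 1.496, and Tspan5 by -1.02. Sheddase substrates held 1 higher of 22 (4.55%), Nrg1 at least 2.13-fold, and 2 lower (9.09%), Areg (-1.44) and Sdc1 (-1.35). Matrix substrates held 1 higher of 17 (5.88%), Nid1 (2.47), and 1 lower (5.88%), the tenascin gene Tnc (-2.46). The astrocyte markers summed to 457 on NSC-Ceacam1L, against 236 on NSC, and their part was not tested.

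The study's design takes genes that differ in both Ceacam1 comparisons as candidates for lying downstream of Ceacam1. Past 2-fold in both Ceacam1 comparisons were 7 of the 78 members. Mmp2, Mmp11, Mmp14, Timp2 and Adamts2 were higher in both, Mmp15 was lower in both, and Adamts15 alone differed in opposite directions, at least 4.18-fold lower on NSCL61-Ceacam1sh than on NSCL61 and at least 1.01-fold higher on NSC-Ceacam1L than on NSC. Of these 7, Mmp11 alone kept both calls under all 6 other settings of background correction, scaling and source. Between NSC-Ceacam1L and NSC, the calls of Mmp2, Mmp14, Adamts2 and Adamts15 were lost with normexp and that of Mmp15 with spike-in scaling, and Mmp2 was higher by at least 1.04-fold only, with no bound above 1 for Adamts2. Between NSCL61-Ceacam1sh and NSCL61, the call of Timp2 was lost with quantile normalization and that of Adamts2 with normexp. No member was higher with the hairpin and lower with Ceacam1L. Of all 22339 genes, 331 were higher in both and 138 lower in both. Another 572 were lower with the hairpin and higher with Ceacam1L, and 362 were higher with the hairpin and lower with Ceacam1L. These 2 comparisons share no array.

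The third comparison set NSCL61 against NSC, the glioma-initiating line against neural stem cells. It shares the NSCL61 array with the first comparison and the NSC array with the second, so its values are not independent of theirs. On NSCL61, 13 of 45 evaluated members (28.9%) were higher, beside 14.4% of all genes evaluated, and 8 (17.8%) were lower, beside 14.0%. The median of the 33 members seen on both arrays was -0.03, beside 0.01 over all such genes.

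Of the members seen on both arrays, Timp4, Timp3 and Timp2 had the 3 largest differences. Timp3 was at 7.52 on NSCL61, against 3.60 on NSC, a difference of 3.92 ± 0.20, and Timp2 differed by 2.38 ± 0.20. Timp4 was at 0.06 on NSCL61, against 4.26 on NSC, a difference of -4.20 ± 0.20, and Timp1 differed by -1.14 ± 0.21. The order of levels therefore differed by gene. Timp2 was highest on NSCL61-Ceacam1sh, then NSCL61, NSC-Ceacam1L and NSC, and Timp4 had the reverse order, with neighbours at least 0.77 apart, which is more than the scanner error. The 6 astrocyte markers summed to 676 on NSCL61, against 236 on NSC, with 5 of them higher on NSCL61, among them Gfap (10.98) and Gja1 (3.53), and their part was not tested.

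Proteases higher on NSCL61 than on NSC included 3 Mmp genes seen on NSCL61 but not on NSC, Mmp12 by at least 10.03-fold, Mmp27 by at least 7.58-fold and Mmp19 by at least 7.24-fold. Mmp2 was at -3.79 on NSCL61, against -5.88 on NSC, at least 1.40-fold higher. Of 6 evaluated proteoglycan-cleaving Adamts genes, 4 (66.7%) were higher, beside 14.4% of all genes. These were Adamts4 (1.89), Adamts1 (1.07), Adamts15 (at least 2.997-fold) and Adamts5 (1.20 as measured, with no bound above 1). Adamts4 alone of these kept its call under all 6 other settings, since Adamts1 and Adamts5 were lost with spike-in scaling and Adamts15 and Adamts5 with normexp. Adam32 differed by 1.16, a call lost with normexp and with spike-in scaling. Adam25 and Adam3, seen on NSCL61 but not on NSC, were at least 1.99-fold and 1.74-fold higher. The calls of Adam25, Adam3 and Mmp2 were lost with normexp. That of Adam3 rests on 1 probe, since its other probe was not well above background on either array.

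Lower on NSCL61 were the membrane-type Mmp15 (-1.59) and Mmp17 (-1.35), Adamts7 (-1.32) and Adamts8 (-1.69), beside Timp4 and Timp1. Another Adamts8 probe, well above background on all 4 arrays, gave 0.09. Adamts6 was at -4.79 on NSCL61, where it was not well above background, against -3.12 on NSC, and was at least 2.89-fold lower, a call lost with normexp. Partners and regulators held 11 (45.8%) higher and 6 (25.0%) lower of 24, beside 14.4% and 14.0% of all genes. Adamtsl1 (at least 17.6-fold) and Thbs2 (at least 15.5-fold) led the higher side. Spock2, a testican proteoglycan (-3.63), and Papln (at least 4.11-fold) led the lower. Sheddase substrates held 6 (28.6%) higher and 2 (9.52%) lower of 21. The interleukin-6 receptor gene Il6ra differed by 4.55 and Cd44 by 3.03, and Areg was at least 12.7-fold lower. Matrix substrates held 4 (22.2%) higher and 5 (27.8%) lower of 18. Fn1 differed by 3.31, and Spp1 was at least 14.7-fold higher and Nid1 at least 29.6-fold lower.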

How the data were processed

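Total RNA of 4 cultures was measured on 1 array each, and groups came from the sample titles. The authors' scanner files hold intensity values (processed signal, corrected for background) from Feature Extraction 10.7.3.1, protocol GE1_107_Sep09, on array design 028005 with mm9 coordinates, per the file headers, while the submitters' processing notes name version 9.1. The NSC file carries fewer digits than the others. The deposited value table is on a log2 scale. Its differences between arrays followed the scanner's with slopes of 0.9995, 1.0 and 0.9999 across genes, which settled scale and direction, while its centring stays unknown. Its column medians were 0.03, 0.00, -0.20 and 0.25 for NSCL61-Ceacam1sh, NSCL61, NSC-Ceacam1L and NSC. It served as an alternative only.

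Each array's signals were scaled to its 75th percentile (541, 439, 571 and 480.0 in the same order) after outlier spots were left out, and spots of a probe were averaged as log2. A probe counted as well above background when the scanner software called at least 50.0% of its spots so, which held for 27421 to 29552 of 55681 probes, and the median spot error was 0.15. Probes were named through the files' accessions (27319), symbols (3528) or older symbols (551) in the RefSeq table of GRCm38.p6, and 24283 stayed unnamed. R 4.3.3, limma 3.58.1, data.table (version 1.17.8), Python 3.11.15, pandas 2.3.3 and numpy 2.4.6 were used, and the counting was tested on simulated data. Chance was not tested, since there is 1 array per group.

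The members and lists were chosen with earlier results of these data known. Named with values were all Timp genes and all genes of the Mmp cluster. For each comparison and direction, they also included the 10 largest members past 2-fold seen on both arrays, and the 10 largest seen on 1 array by their bound. Members past 2-fold in both Ceacam1 comparisons, the 8 brightest members that stayed under 2-fold everywhere, and up to 4 of the largest per direction of each list of non-members completed the rule. Mmp9, Mmp16, Mmp25, Mmp19 between the NSCL61 arrays, Adam1a, Adam2, Adamts20, the genes beside or overlapping members, and the list genes Rhbdf1, Furin and Reck were named after their values were seen. Alternatives were background correction, scaling, filters, the fold threshold, the choice of probe and the source of values.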

Additional observations from a re-analysis of the deposited data

How the results depend on the processing

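No paired analysis was possible because each group has 1 array and the labels give no replicate numbers. For NSCL61-Ceacam1sh against NSCL61, requiring signal on both arrays left 7 higher and 6 lower of 26 members. The same filter left 12965 genes and took 952 of 3665 higher and 1426 of 3787 lower ones. Counts over all genes were not made with normexp. The median of -0.59 became -0.17 with median scaling, -0.36 with quantile normalization, -0.35 with cyclic loess, -0.14 with spike-in scaling and -0.039 with no filter on dim probes. For NSC-Ceacam1L against NSC, the 8 higher members became 2 with normexp, 3 with signal on both arrays, and 3 when members seen on 1 array were counted by their bound, an alternative chosen after seeing the data that counted 1237 of 15314 genes in place of 1602. Of these 1602 genes, 713 were seen on 1 array only. The 1 lower member became 2 with quantile normalization, 0 with spike-in scaling, 2 with the mean of all probes, 5 with no filter and 5 at a 1.5-fold threshold. Its median of -0.17 became 0.10 with cyclic loess and 0.24 with spike-in scaling. For NSCL61 against NSC, the 13 higher members became 7 with normexp and 5 with signal on both arrays, and the median of -0.03 became -0.25 with spike-in scaling, 0.38 with the mean of all probes and -0.34 with no filter. Of the 2199 genes higher in that comparison, 803 were seen on 1 array only.

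The share of calls that were higher on NSC-Ceacam1L than on NSC, 88.9%, became 66.7% with normexp, 75% with signal on both arrays, 61.5% with no filter, 70.6% at 1.5-fold and 100% with spike-in scaling. For NSCL61-Ceacam1sh against NSCL61 it was 41.2%, and 53.8% with signal on both arrays. For NSCL61 against NSC it was 61.9%, and 45.5% with signal on both arrays. The median of all genes shifted by 0.42 with median scaling and 0.46 with spike-in scaling for NSCL61-Ceacam1sh against NSCL61. It shifted by 0.13 with quantile normalization, 0.22 with cyclic loess and 0.41 with spike-in scaling for NSC-Ceacam1L against NSC, and by -0.22 with spike-in scaling for NSCL61 against NSC. Under all 6 other scalings or sources, 24 of 34, 2 of 9 and 12 of 21 calls kept their direction and threshold in the 3 comparisons, in the order of the report. Most losses came with normexp, which took 9, 6 and 8 calls. With the mean of all probes, Adamts10 turned to -0.79 between NSCL61-Ceacam1sh and NSCL61, and to 0.43 between NSCL61 and NSC. Adamts19 turned to 2.86 between NSCL61-Ceacam1sh and NSCL61 in the authors' deposited table, and the cause was not tested. Of 448 values of single members under other settings, 325 moved by less than the spot error, 120 by more and these 3 reversed. Members dim on an array have only a bound there.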

Other observations

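Several members had probes that gave different values. Adam23 had another probe, A_65_P08507, that was well above background on NSC-Ceacam1L only, at -0.49, against -4.56 on NSC, a difference of 4.08 where the probe used in the report gave 0.99. Another Timp2 probe, A_65_P12392, gave 3.84 between NSCL61-Ceacam1sh and NSCL61, against 1.35 at the probe used, and the same direction in all 3 comparisons.

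Adamts10 was at -3.36 on NSCL61-Ceacam1sh, against -4.60 on NSCL61, at the probe used, and at -6.23 on NSCL61-Ceacam1sh, against -3.39 on NSCL61, at the other, so its direction rests on the probe. Adamts8 differed by -4.36 between NSCL61-Ceacam1sh and NSCL61 at the probe used, where it was dim on NSCL61-Ceacam1sh, and by -0.18 at another probe seen on all 4 arrays. Between NSCL61 and NSC the same probes of Adamts8 gave -1.69 and 0.09. Adamts19 was at -6.74 on NSCL61-Ceacam1sh, against -3.95 on NSCL61, which gives -2.79, whereas the authors' deposited table gives 2.86.

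Adam12, a protease of muscle and bone development, had 3 probes. Between NSCL61 and NSC they gave -0.69 at the probe used, -2.68 at A_51_P510882, which was seen on the NSC arrays only, and 2.58 at A_55_P2045571, which was seen on the NSCL61 arrays only. Mmp11 also had another probe, which gave 1.94 between NSCL61-Ceacam1sh and NSCL61 and 2.96 between NSC-Ceacam1L and NSC, the same directions as the probe used.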
